A study of Mus musculus with 32 samples.

Results

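The 7 genes described here, *Cited1*, *Osr1*, *Crym*, *Spock2*, *Meox1*, *Sall1* and *Pgf*, are genes of the cap mesenchyme, the layer of nephron progenitors that covers each ureteric tip in the embryonic kidney. They were taken as a fixed list by symbol from 55806 gene identifiers, chosen with earlier results of these data known. Each has a row in all 4 deposited count tables and passed the low-count filter of every fit. RNA was sequenced from whole kidneys at E18.5, late in embryonic kidney development, and from cells sorted for a tdTomato lineage reporter, in mice that carry 1 wildtype allele of *Enl* (gene symbol *Mllt1*) and 1 allele with a Wilms tumor mutation of its YEATS domain. The T1 allele holds a small insertion and the T3 allele a small deletion, and Cre recombinase switches either on. Whole kidneys of the Six2 lineage came from Six2-TGCtg/+;Enl+/+ (ENLWT), Six2-TGCtg/+;EnlT1/+ (Six2-ENLT1) and Six2-TGCtg/+;EnlT3/+ (Six2-ENLT3) embryos, with 2 libraries each. Sorted Six2-lineage cells came from ENLWT and Six2-ENLT1 embryos at E14.5 and at E18.5, with 3 libraries per genotype and stage. Foxd1-lineage samples came from Foxd1GC/+;Enl+/+ and Foxd1GC/+;EnlT1/+ (Foxd1-ENLT1) embryos at E18.5, with 3 whole kidneys and 4 libraries of sorted cells per genotype. Controls carried the same driver as the mutants. *Six2-TGC* is a transgene for Cre in nephron progenitors with a reported stray expression of *Six3*, and *Foxd1-GC* is a knock-in for Cre in stromal progenitors that abolishes 1 *Foxd1* allele. Nothing in the labels says whether libraries of a group came from separate litters, so p-values measure the spread between these libraries.

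Nephron progenitors either renew themselves or leave the cap, condense and become epithelium, and the balance sets how many nephrons a kidney gets. Six2 and its partner Eya1 hold the cells in the progenitor state. Cited1, a transcriptional co-regulator, marks the least committed cells of the cap, while Osr1 and Sall1 are zinc finger transcription factors needed for progenitor maintenance and Meox1 is a homeobox transcription factor of the cap. Crym is a cytoplasmic protein that binds thyroid hormone, Spock2 (testican-2) is a secreted proteoglycan that podocytes also make, and Pgf is a ligand of the VEGF family that binds Flt1. ENL reads acetylated histones and recruits factors for transcript elongation. *Cited1* lies on chromosome X (102247381 to 102252181 on GRCm38, reverse strand), *Osr1* and *Pgf* on chromosome 12, *Crym* on 7, *Spock2* on 10, *Meox1* on 11 and *Sall1* on 8. Their exons share no base with exons of another gene in GENCODE release M21. Under that release, counting without strand moves no reads between these genes and a neighbour. The release used for the deposited counts is not given.

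RefSeq promoter sequence (GRCm38.p6) was at hand for 4 of the 7 genes, *Cited1*, *Spock2*, *Sall1* and *Pgf*. The bases before the most upstream listed start are shown for *Cited1* and *Spock2*, which fell in every comparison of a Six2-lineage mutant with its controls, and for *Sall1*, which was not called in any of them (at E14.5 it was lower by less than 1.5-fold). Capitals mark matches, on either strand, to the TATA box with the letters TATAAA, to the GC box with the letters GGGCGG, to the TCF/LEF motif with the letters CTTTGA, and to a motif of Six2 and its relatives with the letters TCANGTT, where N is any base. Each sequence runs 5′ to 3′ towards the gene, and that of *Spock2* stops where the GENCODE gene begins. *Cited1* is at chrX:102252182-102252431 (reverse strand), *Spock2* at chr10:60106007-60106218 (forward strand) and *Sall1* at chr8:89044163-89044412 (reverse strand).
Cited1: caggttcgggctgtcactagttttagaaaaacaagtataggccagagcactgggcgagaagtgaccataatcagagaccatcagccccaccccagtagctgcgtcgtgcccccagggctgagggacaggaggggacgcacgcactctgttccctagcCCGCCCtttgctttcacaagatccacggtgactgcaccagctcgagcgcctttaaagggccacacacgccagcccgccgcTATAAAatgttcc
Spock2: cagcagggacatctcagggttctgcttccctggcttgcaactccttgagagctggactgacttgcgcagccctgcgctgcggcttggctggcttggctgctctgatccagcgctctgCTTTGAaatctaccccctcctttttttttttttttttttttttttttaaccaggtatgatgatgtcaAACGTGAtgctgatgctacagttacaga
Sall1: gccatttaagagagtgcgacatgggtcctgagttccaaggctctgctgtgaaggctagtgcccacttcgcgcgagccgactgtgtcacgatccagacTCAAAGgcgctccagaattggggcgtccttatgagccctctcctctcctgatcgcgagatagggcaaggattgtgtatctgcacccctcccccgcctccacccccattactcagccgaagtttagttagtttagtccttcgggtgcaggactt
The *Cited1* stretch holds a TATA box and a GC box, the *Spock2* stretch a TCF/LEF match and a match to the Six2 motif on the reverse strand, and the *Sall1* stretch a TCF/LEF match on the reverse strand. Over the 250 bases before 32851 RefSeq starts, 12.4% held the TATA box letters, 32.7% the GC box letters, 13.8% the TCF/LEF letters and 9.73% the Six2 letters. A further motif, that of posterior HOX factors with the letters TTTACGA, was in 0.478% of them and in none of the 3 stretches. No motif was shared by *Cited1* and *Spock2* and missing from *Sall1*.

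Libraries held 106005614 to 157266455 counts in whole Six2 kidneys, 76510702 to 137888792 in sorted Six2 cells, 67137194 to 79343015 in whole Foxd1 kidneys and 2557443 to 3508381 in sorted Foxd1 cells, so that values of the last are the least precise. *Mllt1* levels do not tell the mutant from the wildtype allele. They were 89.3 and 105 CPM (counts scaled to library size) in whole Six2 ENLWT kidneys, 79.7 and 82.3 CPM with T1, and 76.5 and 77.7 CPM with T3. In whole Foxd1 kidneys *Mllt1* was lower with T1 (98.5 to 104 CPM against 119 to 125 CPM), a difference short of 1.5-fold. By edgeR's quasi-likelihood test *Mllt1* was also lower with T3 in whole Six2 kidneys (1.26-fold, adjusted p = 0.0238). The same held with T1 in sorted E14.5 Six2 cells (1.10-fold, adjusted p = 0.0436). *Six2* itself lay between 78.9 and 933 CPM in sorted Six2 cells and between 9.60 and 19.4 CPM in sorted Foxd1 cells, while the summed level of 12 stromal markers lay between 602 and 2084 CPM in the former and between 8118 and 10876 CPM in the latter. By *Xist* and *Ddx3y*, both whole Six2-ENLT1 libraries were male, both Six2-ENLT3 libraries were female and ENLWT had 1 of each, which bears on the X-linked *Cited1*. All whole Foxd1 libraries lacked *Ddx3y* and all sorted Foxd1 libraries held it. Levels are CPM scaled by the trimmed mean of M-values (TMM) within a table, and tables were scaled separately.

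In sorted ENLWT Six2-lineage cells the 7 genes took different courses from E14.5 to E18.5. Per kilobase of exon, the scale on which genes can be compared, *Osr1* was highest of the 7 at E14.5 with 101 ± 16.1 CPM per kb (SD, n = 3), followed by *Crym* with 73.4 ± 7.51, *Sall1* with 57.3 ± 3.99, *Spock2* with 28.0 ± 2.43, *Pgf* with 23.6 ± 4.16, *Cited1* with 22.0 ± 0.798 and *Meox1* with 19.1 ± 3.31 CPM per kb. The ranges of *Spock2* and *Pgf* overlapped, and those of *Pgf*, *Cited1* and *Meox1* all overlapped with each other. At E18.5 the order was *Spock2* with 125 ± 19.5 CPM per kb, *Sall1* with 71.4 ± 5.32, *Cited1* with 22.0 ± 4.17, *Crym* with 17.8 ± 1.16, *Osr1* with 14.02 ± 3.14, *Meox1* with 3.08 ± 1.18 and *Pgf* with 1.95 ± 0.347. Here *Cited1*, *Crym* and *Osr1* all overlapped with each other, and *Meox1* with *Pgf*.

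The developmental calls (adjusted p under 0.01 and over 2-fold) followed these levels. *Pgf* fell most, from 62.7, 82.2 and 60.2 CPM at E14.5 to 6.78, 4.82 and 5.39 CPM at E18.5 (12.1-fold, log2 fold change -3.59 ± 0.180 (SE), adjusted p = 1.78e-10). *Osr1* fell 7.21-fold (log2 fold change -2.85), *Meox1* 6.22-fold (-2.64) and *Crym* 4.12-fold (-2.04), and *Six2* fell 3.84-fold (-1.94) beside them. *Spock2* rose 4.47-fold, from 142 to 169 CPM up to 592 to 806 CPM (log2 fold change 2.16 ± 0.112, adjusted p = 2.65e-10). *Cited1* did not change detectably (37.2 to 39.9 CPM against 30.5 to 44.8 CPM, adjusted p = 0.994), with a sign that turned in several alternative settings, and *Sall1* was 1.25-fold higher, short of the threshold. So 4 of 7 fell and 1 rose, beside 20.6% of the 25222 tested genes that fell and 24.8% that rose. E14.5 cells were freed with trypsin and E18.5 cells with collagenase, so stage and dissociation cannot be told apart here. By E18.5 the sorted cells include descendants that had left the cap: 6 of 6 podocyte and 6 of 6 proximal tubule markers rose over the same interval, and the summed podocyte level went from 96.4 to 123 CPM up to 2900 to 3393 CPM. The part of such cells in the levels of the 7 genes was not tested.

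In whole kidneys with mutant ENL in the Six2 lineage, the question was whether progenitor genes are lost from the organ. *Cited1*, *Spock2*, *Osr1* and *Crym* fell with either allele, while *Meox1*, *Sall1* and *Pgf* did not pass the test (adjusted p under 0.05 and over 1.5-fold). *Cited1* was at 7.59 and 6.89 CPM in ENLWT, 2.28 and 2.60 CPM in Six2-ENLT1 and 2.17 and 2.06 CPM in Six2-ENLT3. Both mutant groups lay below both controls, 2.97-fold lower with T1 (log2 fold change -1.57 ± 0.131, adjusted p = 0.00031) and 3.42-fold lower with T3 (-1.77 ± 0.133, adjusted p = 0.000163). Fitted without the female control, so against the male one alone, the T1 change was -1.62, and without the male control the T3 change was -1.70. *Spock2* was at 177 and 211 CPM in ENLWT, 97.7 and 96.7 CPM with T1 and 82.4 and 87.3 CPM with T3. It fell 2.00-fold with T1 (-0.998 ± 0.0851, adjusted p = 0.000346) and 2.29-fold with T3 (-1.19 ± 0.0855, adjusted p = 0.00014).

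The falls of *Osr1* and *Crym* were smaller. *Osr1* was at 11.997 and 13.5 CPM in ENLWT, 7.90 and 6.98 CPM with T1 and 7.40 and 8.47 CPM with T3. It fell 1.71-fold with T1 (adjusted p = 0.00395) and 1.61-fold with T3 (adjusted p = 0.00613), a call lost without T1 replicate 2 in the first (log2 fold change -0.68, adjusted p = 0.0565) and without ENLWT replicate 2 (-0.58) or T3 replicate 1 (-0.58) in the second. *Crym* went from 31.5 and 35.1 CPM to 19.1 and 21.3 CPM with T1 and 20.6 and 19.7 CPM with T3, or 1.65-fold and 1.66-fold lower. *Meox1* was at 10.1 and 10.98 CPM in ENLWT, 7.62 and 7.07 CPM with T1 and 9.36 and 9.78 CPM with T3. It was 1.43-fold lower with T1, short of the fold threshold at adjusted p = 0.0101, and 1.10-fold lower with T3 (adjusted p = 0.382). *Sall1* lay at 183 and 219 CPM in ENLWT, 253 and 247 CPM with T1 and 199 and 209 CPM with T3, and *Pgf* between 4.01 and 5.02 CPM in all 6 kidneys. *Sall1* and *Pgf* were at log2 fold changes of 0.32 (adjusted p = 0.0542) and -0.09 (adjusted p = 0.763) with T1, and of 0.02 and 0.06 with T3.

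Counted over the 7 genes, 4 fell and 0 rose with T1, beside 4.88% of 23931 tested genes that fell and 2.88% that rose, and 4 fell and 0 rose with T3, beside 5.28% and 4.34%. The median log2 fold change of the 7 was -0.72 with T1 and -0.69 with T3, against -0.01 and -0.00 over all tested genes. At an unadjusted p under 0.05, 1 gene (*Sall1*) was higher with T1 and 0 with T3, and edgeR's exact test and DESeq2 called the same 4 genes with either allele. Both contrasts use the same 2 controls, so they are not independent. Between the alleles, 0 of 7 genes differed by edgeR's quasi-likelihood test, with 1 higher and 1 lower in T3 at an unadjusted p under 0.05 and 0 called by the exact test or DESeq2. Over all genes the quasi-likelihood test called 0.00418%, or 1 gene, against 221 by the exact test and 71 by DESeq2. The largest such difference was in *Meox1* (log2 difference 0.38 ± 0.0953, T3 above T1, adjusted p = 0.512). Podocyte and proximal tubule markers fell in the same kidneys (6 of 6 each with either allele), from summed proximal tubule levels of 2223 to 2584 CPM in ENLWT to 372 to 458 CPM with T1 and 364 to 402 CPM with T3. Loop and distal tubule markers fell as well (5 of 5 with either allele), and macrophage markers rose (6 of 7 with either allele, from a summed 103 to 107 CPM to 142 to 159 CPM with T1 and 152 to 170 CPM with T3). Their part in the falls of the 4 genes was not tested. In a whole organ, fewer cells of a type and less RNA per cell cannot be told apart.

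**Figure D1:**
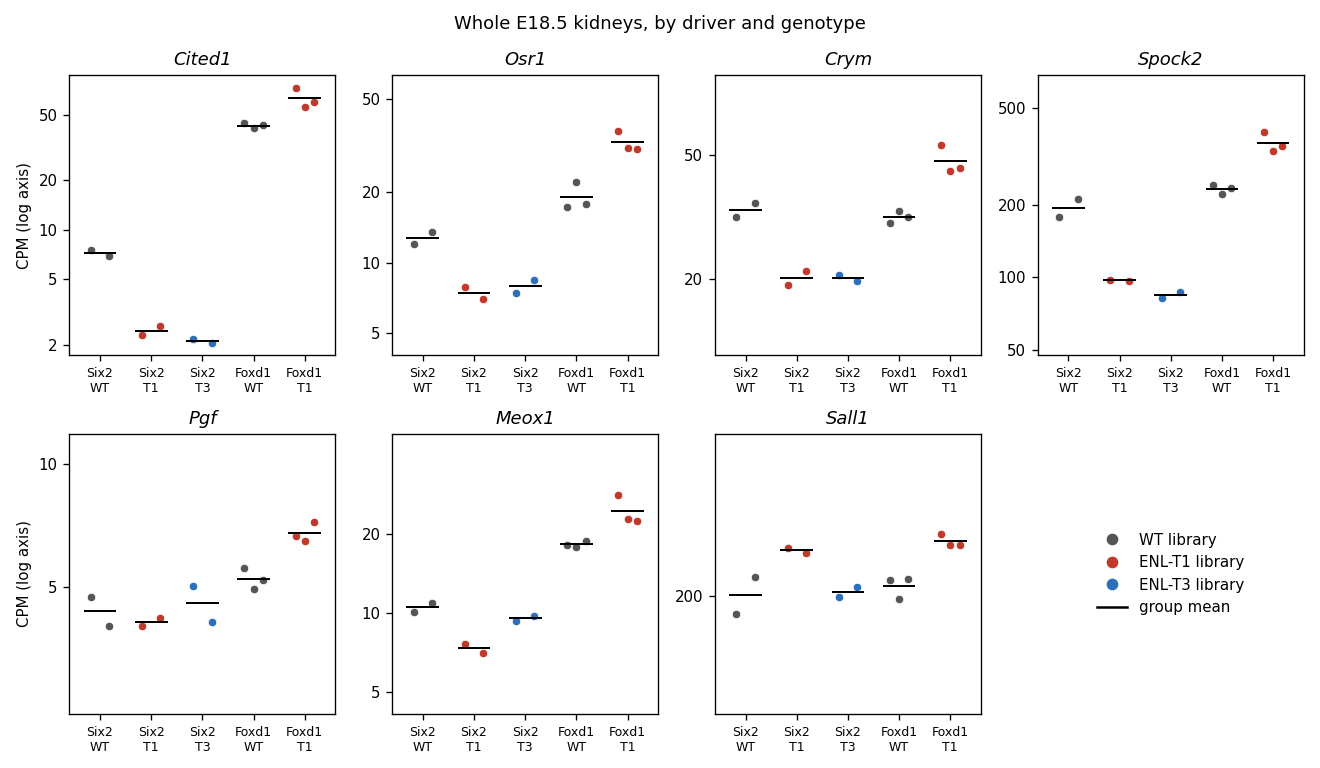
Level of each of the 7 genes in whole E18.5 kidneys, in CPM on a log axis, with 1 point per library and a bar at the group mean, for the Six2 driver (ENLWT, T1, T3, 2 libraries each) and the Foxd1 driver (ENLWT, T1, 3 libraries each). *Cited1* went from 6.89 to 7.59 CPM down to 2.06 to 2.60 CPM in the Six2 mutants and stood at 41.6 CPM or more in all Foxd1 kidneys.

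Cells sorted for the Six2 lineage showed the same 4 genes lower, and *Pgf* with them. At E14.5, *Cited1* was at 38.8, 39.9 and 37.2 CPM in ENLWT and 18.3, 17.5 and 16.8 CPM in Six2-ENLT1, a fall of 2.18-fold (log2 fold change -1.12 ± 0.0673, adjusted p = 5.37e-05). *Osr1* went from 184, 247 and 196 CPM to 96.6, 94.4 and 84.1 CPM (2.25-fold, adjusted p = 0.000367). *Crym* went from 256, 270 and 221 CPM to 110, 116 and 102 CPM (2.25-fold, adjusted p = 9.24e-05). In each of these genes all mutant libraries lay below all controls.

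*Spock2* went from 169, 154 and 142 CPM at E14.5 to 71.5, 80.4 and 79.9 CPM in the mutant (1.98-fold, adjusted p = 0.000135). The largest fall at this stage was that of the ligand *Pgf*, from 62.7, 82.2 and 60.2 CPM to 18.8, 17.6 and 17.4 CPM (3.77-fold, log2 fold change -1.91 ± 0.116, adjusted p = 5.39e-05). *Meox1* levels overlapped (35.6 to 50.3 CPM against 42.9 to 50.1 CPM, adjusted p = 0.62), and *Sall1* was 1.204-fold lower, short of the fold threshold at adjusted p = 0.0212. Thus 5 of 7 fell and 0 rose, beside 2.28% of 22387 tested genes that fell and 4.11% that rose, with a median log2 fold change of -1.12 over the 7 genes and 0.00 over all. No gene of the 7 was higher at an unadjusted p under 0.05 by any of the 3 tools. Stromal markers rose in the same cells (8 of 12, 1 fell), with summed levels of 1181 to 2084 CPM against 726 to 860 CPM in ENLWT, and their part in the falls was not tested.

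At E18.5 the same 5 genes fell. *Cited1* was at 30.5, 40.4 and 44.8 CPM in ENLWT and 4.96, 6.25 and 7.30 CPM in Six2-ENLT1, a fall of 6.24-fold (log2 fold change -2.64 ± 0.160, adjusted p = 9.34e-08). *Crym* went from 62.8, 55.9 and 62.7 CPM to 15.6, 16.8 and 18.04 CPM (3.58-fold, adjusted p = 9.12e-09). *Osr1* went from 25.3, 25.1 and 36.5 CPM to 7.68, 9.45 and 8.39 CPM (3.39-fold, adjusted p = 1.56e-06). No library of one genotype reached the range of the other in any of them.

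*Spock2* went from 592, 676 and 806 CPM to 214, 243 and 269 CPM (2.85-fold, adjusted p = 4.15e-07), and *Pgf*, by then low in both genotypes, from 6.78, 4.82 and 5.39 CPM to 2.16, 3.58 and 2.81 CPM (1.98-fold, adjusted p = 0.00334). *Sall1* was higher in all mutant libraries (528, 506 and 528 CPM against 369, 352 and 407 CPM), at 1.39-fold short of the fold threshold (adjusted p = 0.000185). *Meox1* was at 4.12, 7.12 and 9.34 CPM in ENLWT and 10.1, 9.46 and 8.71 CPM in the mutant (adjusted p = 0.17), and without ENLWT replicate 3 it would be called higher (log2 fold change 0.75, adjusted p = 0.0229). So 5 of 7 fell and 0 rose (1 without that library), beside 5.54% of 22685 tested genes that fell and 6.14% that rose. At an unadjusted p under 0.05 the quasi-likelihood test had 1 gene higher, and the exact test and DESeq2 had 2, with 0 called by either. The median log2 fold change of the 7 was -1.51, against 0.02 over all.

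**Figure D2:**
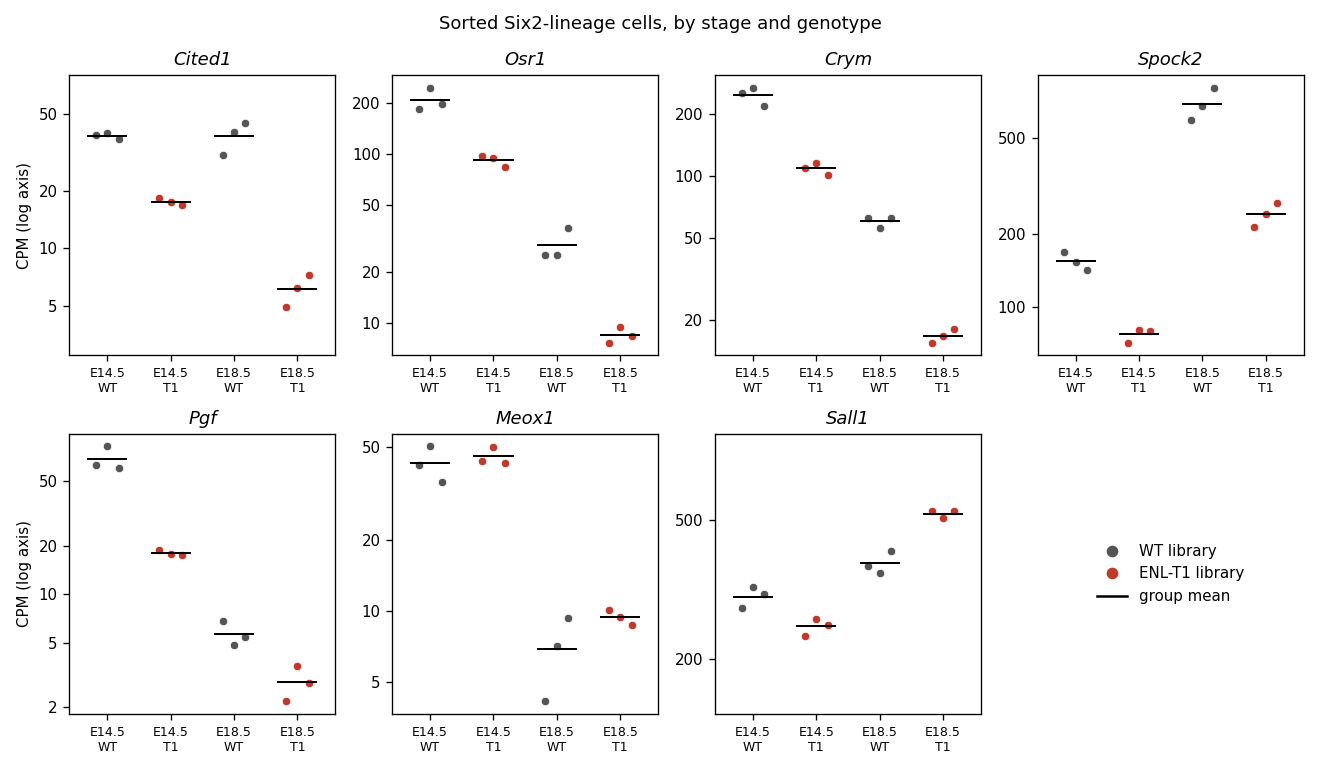
Level of each of the 7 genes in sorted Six2-lineage cells, in CPM on a log axis, with 1 point per library and a bar at the group mean, at E14.5 and E18.5 in ENLWT and Six2-ENLT1 (3 libraries each). For *Cited1*, *Osr1*, *Crym*, *Spock2* and *Pgf* the mutant points lie below the control points at both stages, while *Meox1* overlaps at both and *Sall1* is lower at E14.5 and higher at E18.5.

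Markers of other cell types moved with genotype in these E18.5 libraries. The summed podocyte level was 2900 to 3393 CPM in ENLWT and 209 to 262 CPM in the mutant (6 of 6 markers fell), and the proximal tubule level 1251 to 1686 CPM and 433 to 476 CPM (6 of 6 fell). Red cell markers rose from 104 to 210 CPM to 1550 to 2273 CPM (5 of 6), macrophage markers from 17.2 to 22.6 CPM to 55.0 to 68.1 CPM (6 of 7) and stromal markers from 602 to 816 CPM to 1085 to 1246 CPM (7 of 12, 2 fell). A change in the number of such cells and a change in marker RNA per cell cannot be told apart here. The part of these marker shifts in the E18.5 changes of the 7 genes was not tested.

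Whether the mutant effect itself differed between the stages was tested as an interaction on the 12 sorted Six2 libraries (adjusted p under 0.05, no fold threshold). *Cited1* fell further at E18.5, by 1.51 on the log2 scale (SE 0.197, adjusted p = 0.000329), and so did *Crym*, with a difference of -0.66 (SE 0.118, adjusted p = 0.00327). *Sall1* moved the other way, with a difference of 0.75 (SE 0.0954, adjusted p = 0.000256), and the fall of *Pgf* was smaller at E18.5, with a difference of 0.94 (SE 0.239, adjusted p = 0.028). *Osr1* (-0.58, adjusted p = 0.0977), *Spock2* (-0.51, adjusted p = 0.0555) and *Meox1* (0.37, adjusted p = 0.534) did not pass. The 2 genes down and 2 up stand beside 4.22% of all tested genes down and 3.94% up. DESeq2 called *Osr1* and *Spock2* as well, making 4 down, as did leaving out ENLWT replicate 1 of E18.5. The *Pgf* call was lost, leaving 1 up, without any 1 of 7 libraries: ENLWT replicate 2 or T1 replicates 2 or 3 of E14.5, or ENLWT replicates 2 or 3 or T1 replicates 2 or 3 of E18.5.

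Since *Six2*, the defining gene of these progenitors, fell too (1.78-fold at E14.5 and 2.45-fold at E18.5), each gene was set against it within a library, as log2 of its CPM over that of *Six2*. At E18.5 *Cited1* over *Six2* was -2.80, -2.30 and -2.55 in ENLWT and -3.99, -3.94 and -3.76 in Six2-ENLT1, a mean difference of -1.35. *Crym* (-0.55), *Osr1* (-0.46) and *Spock2* (-0.22) also stood lower against *Six2* in all mutant libraries, while *Pgf* overlapped (0.29). *Sall1* was higher against *Six2* by 1.77 and *Meox1* by 1.83, with no overlap. In whole Six2-ENLT1 kidneys *Cited1* over *Six2* was lower too (-0.38), but *Osr1* (0.42), *Crym* (0.47) and *Spock2* (0.20) stood higher against *Six2* without overlap. That was the opposite of the sorted E18.5 cells with *Six2* as the reference, but not with *Eya1*. Over *Eya1* the mean differences of *Osr1*, *Crym* and *Spock2* were -0.15, -0.0955 and -0.37 in whole Six2-ENLT1 kidneys. In sorted E18.5 cells they were -1.01, -1.11 and -0.77. With T3, *Osr1* (0.67) and *Crym* (0.63) were higher against *Six2* without overlap, and *Cited1* (-0.42) and *Spock2* (0.17) overlapped with ENLWT. Over *Eya1*, *Osr1* (0.38) was higher with T3 without overlap, while *Crym* (0.34) and *Spock2* (-0.13) overlapped with ENLWT. Within sorted E18.5 cells *Cited1* had the largest drop against *Six2* among the 7 genes, and *Sall1* and *Meox1* the largest gains.

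At E14.5 *Pgf* over *Six2* was lower by 1.05 (mean difference -1.05) and *Osr1* over *Six2* was at -0.31, both without overlap, and *Cited1* (-0.28), *Crym* (-0.32) and *Spock2* (-0.14) overlapped. *Meox1* (0.97) and *Sall1* (0.58) were higher without overlap. Over *Eya1* at E14.5, *Cited1* (-0.47) and *Crym* (-0.51) were lower without overlap, and *Spock2* (-0.33) overlapped. Against *Eya1* in place of *Six2*, the E18.5 difference of *Cited1* was -1.90 and that of *Pgf* -0.26, so the direction for *Pgf* also depends on the reference gene. These ratios describe libraries and carry no test.

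**Figure D3:**
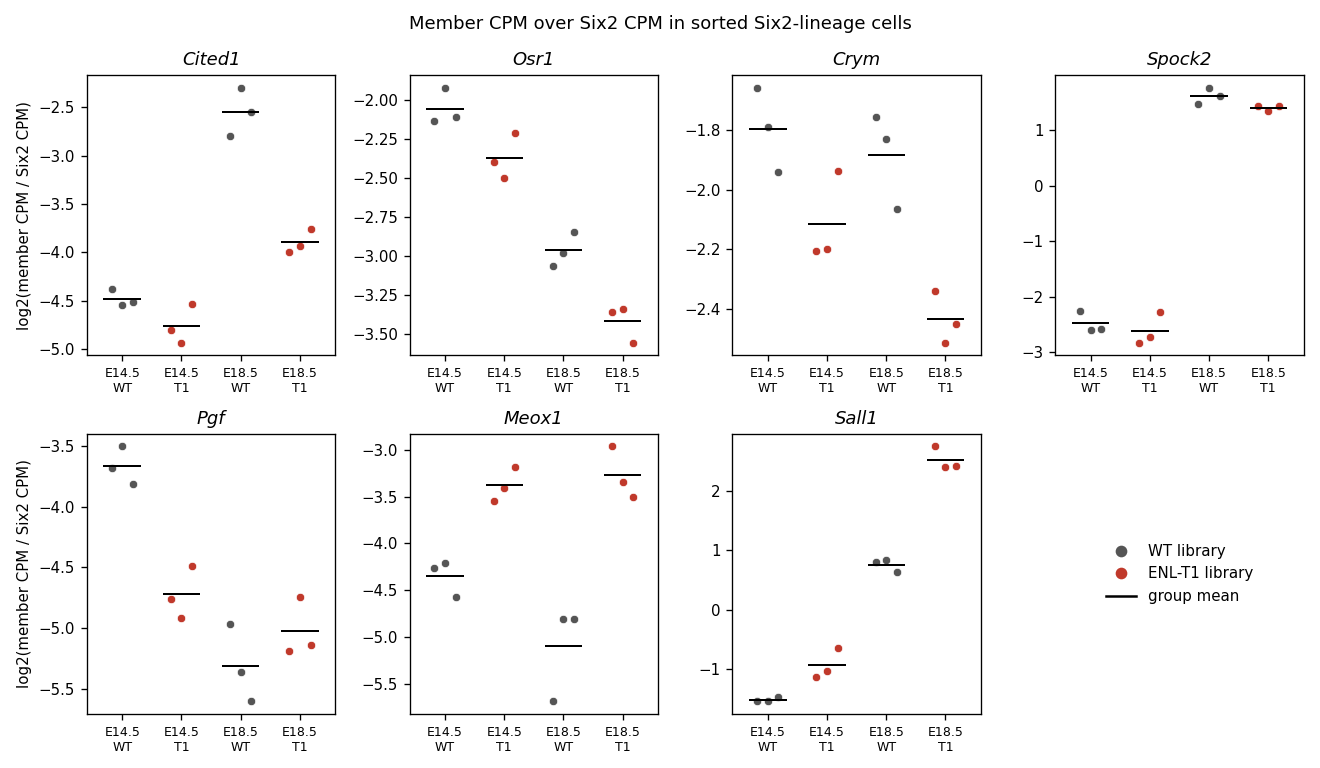
Level of each of the 7 genes relative to *Six2* in sorted Six2-lineage cells, as log2 of the ratio of CPM (panels have their own axes), with 1 point per library and a bar at the group mean. At E18.5 *Cited1* over *Six2* lies between -3.99 and -3.76 in Six2-ENLT1 and between -2.80 and -2.30 in ENLWT, while *Meox1* and *Sall1* lie higher in the mutant at both stages.

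In whole Foxd1-ENLT1 kidneys, where the mutation sits in the stroma and nephron progenitors keep wildtype ENL, the same genes were higher. *Osr1* was at 17.4, 22.1 and 17.9 CPM in ENLWT and 36.6, 30.9 and 30.6 CPM in the mutant, a rise of 1.71-fold (log2 fold change 0.78 ± 0.0956, adjusted p = 4.56e-05). *Spock2* rose 1.55-fold, from 240, 222 and 234 CPM to 397, 332 and 350 CPM (adjusted p = 1.03e-05). *Crym* rose 1.51-fold, from 30.2, 33.1 and 31.5 CPM to 53.8, 44.4 and 45.4 CPM (adjusted p = 4.94e-05). In each of these genes all mutant libraries lay above all controls.

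*Cited1* was at 44.3, 41.6 and 43.1 CPM in ENLWT and 73.3, 55.7 and 59.7 CPM in Foxd1-ENLT1, 1.46-fold higher and just short of the fold threshold (adjusted p = 0.000287). *Meox1* lay at 17.9 to 18.8 CPM in ENLWT and 22.5 to 28.2 CPM in the mutant, *Pgf* at 4.94 to 5.54 CPM and 6.45 to 7.19 CPM, and *Sall1* at 197 to 217 CPM and 257 to 271 CPM. *Meox1* (1.34-fold, adjusted p = 0.00207), *Pgf* (1.30-fold, adjusted p = 0.0186) and *Sall1* (1.25-fold, adjusted p = 0.000754) were higher by less. With the fold threshold 3 of 7 rose and 0 fell, beside 2.65% of 20145 tested genes that rose and 7.53% that fell. At adjusted p under 0.05 alone all 7 were higher, beside 16.4% of tested genes, and 0 of 7 were lower at an unadjusted p under 0.05 by any of the 3 tools. The median log2 fold change was 0.55 over the 7 and -0.00 over all genes. Without T1 replicate 1, the highest library for 6 of the 7 genes, only *Osr1* kept its call (1 of 7 called). *Six2* and *Eya1* rose in the same kidneys by 1.68-fold and 1.63-fold, against which the 7 genes did not stand higher: the mean difference over *Six2* ran from -0.42 (*Sall1*) to 0.04 (*Osr1*). Proximal tubule markers fell (5 of 6), from a summed 2513 to 2643 CPM to 1105 to 1415 CPM, and their part in the rise was not tested. *Osr1* (1.78-fold) and *Pgf* (1.64-fold) also rose in sorted Foxd1-lineage cells, which carry the mutation, while the other 5 genes were not called there. The part of Foxd1-lineage cells in the whole-kidney rise was not tested.

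The effect of T1 in the 2 kinds of whole kidney was compared directly as a driver by genotype interaction, with the Foxd1 change minus the Six2 change. It was positive for *Cited1* (2.11 ± 0.148 on the log2 scale, adjusted p = 2.1e-06), *Spock2* (1.62 ± 0.127, adjusted p = 4.68e-06), *Osr1* (1.54 ± 0.173, adjusted p = 8.41e-05), *Crym* (1.31 ± 0.130, adjusted p = 2.96e-05) and *Meox1* (0.93 ± 0.144, adjusted p = 0.00108). *Pgf* (0.45, adjusted p = 0.135) and *Sall1* (-0.01, adjusted p = 0.986) did not pass, and the sign for *Sall1* turned in several settings. That makes 5 of 7 with a higher Foxd1 change and 0 lower, beside 4.74% and 3.65% of 23854 genes, with 0 lower at an unadjusted p under 0.05 or by DESeq2.

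Such a contrast rests on 2 sets of controls that were not alike. *Cited1* averaged 7.24 ± 0.493 CPM in Six2 ENLWT kidneys (SD, n = 2) and 43.0 ± 1.35 CPM in Foxd1 ENLWT kidneys (SD, n = 3), a ratio of 5.94 between separately scaled tables. For *Six2* the ratio was 2.93, for *Meox1* 1.74, for *Osr1* 1.497, and for *Spock2*, *Pgf*, *Sall1*, *Crym* and *Eya1* between 0.949 and 1.197. The 2 sets differ in driver allele, sex, sequencing depth and read length (2 × 50 against 2 × 75 bases), which cannot be told apart.

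**Figure D4:**
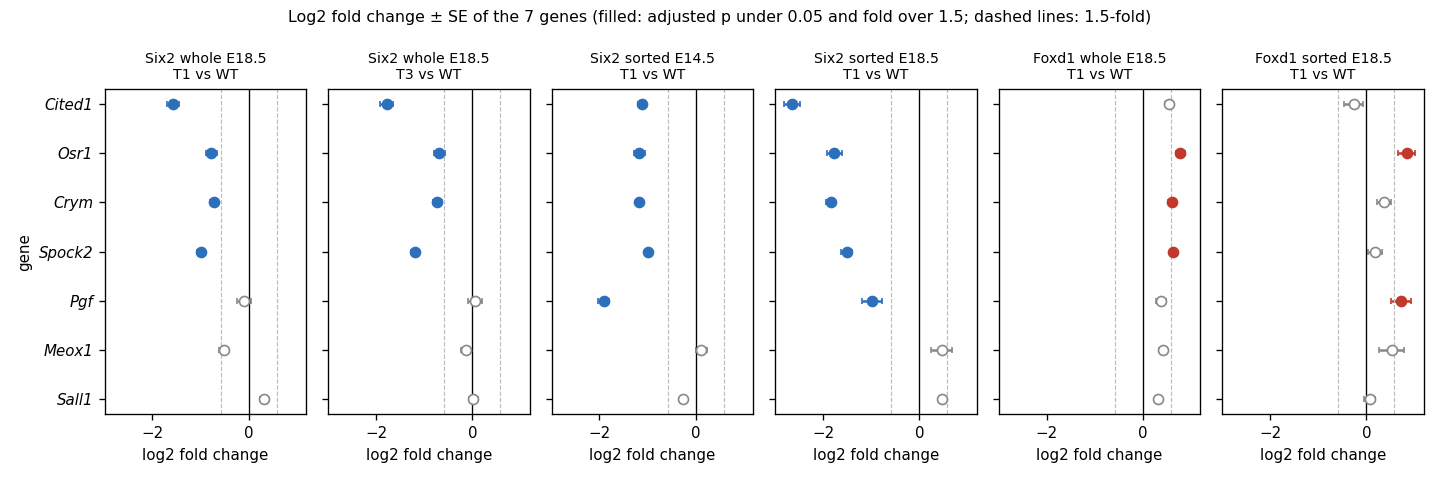
Log2 fold change of the 7 genes against ENLWT of the same experiment in 6 comparisons, with the SE as a bar, filled points for genes past adjusted p 0.05 and 1.5-fold, and dashed lines at 1.5-fold. *Cited1*, *Osr1*, *Crym* and *Spock2* lie between -2.64 and -0.69 in the 4 Six2-lineage comparisons, and all 7 genes lie between 0.32 and 0.78 in whole Foxd1 kidneys.

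Sorted Foxd1-lineage cells gave a different set. *Osr1* was at 33.3, 25.1, 38.7 and 16.6 CPM in ENLWT and 50.9, 49.2, 45.0 and 57.2 CPM in Foxd1-ENLT1, a rise of 1.78-fold (log2 fold change 0.84 ± 0.168, adjusted p = 0.00256). *Pgf* was at 5.28, 10.5, 11.3 and 9.40 CPM in ENLWT and 14.02, 14.96, 14.4 and 15.5 CPM in the mutant, a rise of 1.64-fold (0.72 ± 0.207, adjusted p = 0.0317) that rests on 19 to 48 counts per library. In both genes all mutant libraries lay above all controls. *Cited1* overlapped between the genotypes (28.2 to 63.1 CPM against 27.3 to 53.8 CPM, adjusted p = 0.468). In ENLWT it averaged 50.3 ± 15.5 CPM here (SD, n = 4) and 38.6 ± 7.31 CPM in sorted E18.5 Six2 cells (SD, n = 3), in separately scaled tables. *Six2*, *Crym*, *Spock2* and *Sall1* averaged lower in the Foxd1 cells. *Pgf* averaged 9.12 CPM in Foxd1 cells and 5.67 CPM in Six2 cells, *Meox1* 7.36 and 6.86 CPM, and *Osr1* 28.5 and 29.0 CPM.

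*Crym* lay at 17.7 to 27.5 CPM in ENLWT and 25.1 to 29.9 CPM in the mutant, *Meox1* at 5.42 to 9.06 CPM and 7.43 to 15.8 CPM, *Spock2* at 27.1 to 36.5 CPM and 28.0 to 42.1 CPM, and *Sall1* at 32.3 to 52.0 CPM and 45.5 to 46.8 CPM. *Crym* (log2 fold change 0.37, adjusted p = 0.134), *Meox1* (0.53, adjusted p = 0.221), *Spock2* (0.18, adjusted p = 0.464) and *Sall1* (0.07, adjusted p = 0.793) also overlapped, and so did *Six2* (0.04). So 2 of 7 rose and 0 fell, beside 3.63% of 12717 tested genes that rose and 2.18% that fell, with 0 lower at an unadjusted p under 0.05 by any of the 3 tools. DESeq2 called *Osr1* alone, and the *Pgf* call was also lost without ENLWT replicate 1 or T1 replicates 2, 3 or 4, leaving 1 of 7. Macrophage markers rose in these cells (5 of 7, summed 92.6 to 234 CPM in ENLWT and 243 to 330 CPM in the mutant). Proximal tubule markers fell (3 of 5 tested, 104 to 272 CPM and 55.1 to 90.4 CPM), and so did loop and distal tubule markers (2 of 4 tested). Podocyte markers summed to 494 to 852 CPM in ENLWT and 511 to 671 CPM in the mutant, with 0 of 6 called. The part of these markers in the values of the 7 genes was not tested.

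Between sorted lineages at E18.5, the T1 change in Foxd1 cells minus that in Six2 cells was positive for *Osr1* (2.58 ± 0.249, adjusted p = 2.06e-07), *Cited1* (2.36 ± 0.293, adjusted p = 5.72e-06), *Crym* (2.19 ± 0.167, adjusted p = 7.41e-09), *Pgf* (1.68 ± 0.307, adjusted p = 0.000504) and *Spock2* (1.67 ± 0.192, adjusted p = 2.16e-06). It was negative for *Sall1* (-0.43 ± 0.140, adjusted p = 0.0419), a call lost (0 lower) without any 1 of 9 of the 14 libraries, which were ENLWT replicates 1 or 2 and T1 replicates 1 or 3 of the Six2 cells, and ENLWT replicates 1 or 2 and T1 replicates 2, 3 or 4 of the Foxd1 cells. *Meox1* was at 0.04 (adjusted p = 0.969). The 5 higher and 1 lower stand beside 8.25% and 7.63% of 14869 tested genes. Lineage goes with read length, with sequencing depth (far lower in Foxd1 cells) and, in part, with sex here.

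Other genes of the same tissue put the list in context. Of 19 other cap mesenchyme genes, 5 fell and 1 rose in whole Six2-ENLT1 kidneys (over all genes, 4.88% fell and 2.88% rose) and 6 fell and 1 rose in Six2-ENLT3 kidneys (5.28% and 4.34%). In sorted Six2 cells 8 fell and 0 rose at E14.5 (2.28% and 4.11%), and 6 fell and 1 rose at E18.5 (5.54% and 6.14%). In whole Foxd1-ENLT1 kidneys 5 rose and 0 fell (2.65% and 7.53%), and in sorted Foxd1 cells 1 of 17 tested rose and 1 fell (3.63% and 2.18%). Their median log2 fold change was -0.15 in whole Six2-ENLT1 kidneys and -0.30 in sorted E18.5 cells, against -0.72 and -1.51 for the 7 genes. Both lists were chosen with earlier results of these data known, so no conclusion is drawn from the gap between these medians. Of the 19, 13 were not called in whole Six2-ENLT1 kidneys, 11 in sorted E14.5 Six2 cells and 12 in sorted E18.5 Six2 cells. The genes named next all fell, so they do not stand for the whole list. *Fgf20*, a growth factor that keeps progenitors alive, fell by 1.54 on the log2 scale in whole Six2-ENLT1 kidneys and by 1.65 in sorted E18.5 cells. *Bmp7*, a signalling factor for progenitor renewal and survival, fell by 0.64 and 1.17, and *Itga8*, an integrin of the cap, fell by 1.06 at E14.5.

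Commitment genes, which mark cells leaving the cap, went partly the other way. Of 12, 4 rose and 0 fell in whole Six2-ENLT1 kidneys (over all genes, 2.88% rose and 4.88% fell), and 5 rose and 1 fell in Six2-ENLT3 kidneys (4.34% and 5.28%). They also rose with the Foxd1 driver, 2 of 12 in whole kidneys (2.65%) and 5 of 11 tested in sorted cells (3.63%), with 0 lower in either. In sorted E18.5 Six2 cells 6 rose and 1 fell (6.14% and 5.54%), and *Sfrp2*, a secreted Wnt modulator, was at a log2 fold change of 1.33 and *Wnt4*, the inducer of epithelial conversion, at 0.82. At E14.5 0 rose and 3 fell (4.11% and 2.28%), with *Lhx1* at -1.11 and *Dll1* at -0.82, and none of the 12 was called higher there. Among 18 paralogs and relatives of the 7 genes and of the Pgf receptors, 2 rose and 4 fell in sorted E14.5 cells (4.11% and 2.28% of all genes), and of 17 tested at E18.5, 5 rose and 2 fell (6.14% and 5.54%). *Meox2*, the paralog of *Meox1*, fell at E14.5 by 1.38 on the log2 scale while *Meox1* was at 0.11. *Vegfd*, a VEGF family ligand like *Pgf*, rose in E14.5 cells (log2 fold change 2.93) and at E18.5 (1.06), and fell in whole Foxd1 kidneys (-0.93). *Flt1*, the receptor of Pgf, was at -0.34 at E14.5 (adjusted p = 0.579) and at 0.10 at E18.5 (adjusted p = 0.68).

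Over the 12 sorted Six2 libraries, the likeness of each gene's log2 CPM to that of the 25222 tested genes was measured as Pearson's r, a description over libraries that share 2 stages and 2 genotypes. *Osr1* was most like *Six2* (r = 0.997), then *Des* (0.996) and *Cat* (0.995), and *Crym* most like *Zmat4* (0.994), *Bmp7* (0.994) and *Des* (0.992). *Pgf* was most like *Rps6ka2* (0.994), *Fgd1* (0.994) and *Trim63* (0.989), and *Cited1* most like *Aldh1a2* (0.987), *Has2* (0.980) and *Pcx* (0.976). *Spock2* was most like *Lrrc4* (0.986), the podocyte surface gene *Podxl* (0.984) and *Ctnnb1* (0.983), *Meox1* most like *Zfp932* (0.993), *Gabra5* (0.990) and *Krr1* (0.990), and *Sall1* most like *Plxdc1* (0.976), *Ntrk3* (0.975) and *Gm15050* (0.969). Among the 7 genes, *Osr1*, *Crym* and *Pgf* ran closest together (r from 0.956 to 0.987 between pairs), *Cited1* stood at 0.794 with *Crym* and 0.232 with *Spock2*, and *Sall1* ran against *Osr1* (-0.849).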

How the data were processed

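RNA from whole kidneys (stranded poly(A) kit) and sorted cells (ultra-low-input kit) was aligned by the authors to mm10 with HISAT2 and counted per gene with HTSeq, without strand and without an alignment quality minimum, so reads of uncertain place count too. The deposited values are raw counts, whole numbers with no normalization or filter. The annotation release is not given in the sources used here. Groups came from the sample titles. The 7 genes and the comparison lists were chosen with earlier results of these data known.

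Ensembl identifiers were named by GENCODE M21 (55450 of 55806). In R 4.3.3, genes were filtered by filterByExpr (minimum count 10, minimum total 15), scaled by TMM and tested with the quasi-likelihood test of edgeR 4.0.16, two-sided, with Benjamini-Hochberg adjustment over all tested genes. The study's own test, edgeR's exact test, is an alternative, with DESeq2 1.42.0, other scalings, no filter, other groupings, a replicate block and each library left out. Whole Six2 kidneys were fitted together, sorted Six2 cells per stage (all 12 for development and interaction) and the Foxd1 sets alone. Genotype calls needed adjusted p under 0.05 and over 1.5-fold, developmental calls 0.01 and 2-fold, as in the study's methods, and interactions 0.05 alone. The script was tested on simulated data. Named genes were the 7, *Mllt1*, *Six2* and *Eya1*, up to 4 called genes of each list with the largest fold, and the 3 genes most like each of the 7. Beyond this rule, some values of list genes in the text (such as those of *Flt1*) were chosen after they were seen. No 2 libraries of a group were copies: over 33 pairs, chi-square per gene was at least 1.358. Intervals of counting error are not given, and the depth sets the precision chiefly in sorted Foxd1 cells. Promoters are RefSeq's, and figures were drawn with matplotlib 3.10.9.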

Additional observations from a re-analysis of the deposited data

Results flagged for a closer look

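Effects of T1 that differed between groups by a test of the difference itself were found for each of the 7 genes in at least 1 comparison, each from edgeR's quasi-likelihood test. Between the stages in sorted Six2 cells (E18.5 effect minus E14.5 effect), the log2 difference was -1.51 for *Cited1*, -0.66 for *Crym*, 0.75 for *Sall1* and 0.94 for *Pgf*. Between whole kidneys (Foxd1 effect minus Six2 effect) it was 2.11 for *Cited1*, 1.54 for *Osr1*, 1.31 for *Crym*, 1.62 for *Spock2* and 0.93 for *Meox1*. Between sorted lineages at E18.5 it was 2.36 for *Cited1*, 2.58 for *Osr1*, 2.19 for *Crym*, 1.67 for *Spock2*, -0.43 for *Sall1* and 1.68 for *Pgf*. The *Pgf* difference between stages and the *Sall1* difference between lineages were lost when single libraries were left out. No library stood apart from its group by Dixon's criterion in the 14 groups of 4 libraries tested (each of the 7 genes in sorted Foxd1 cells of either genotype).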

How the results depend on the processing

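Across alternatives other than leaving out a library, 522 results kept direction and side of the threshold, 13 became stronger, 1 weaker and 10 reversed. With single libraries left out, 594 kept both, 8 became stronger, 26 weaker and 30 reversed. The cause of these shifts was not tested beyond what the alternative itself changes.

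With no fold threshold, the number of the 7 genes called higher was 1 in sorted E18.5 cells, 2 in development and 7 in whole Foxd1 kidneys. DESeq2 and the lack of a low-count filter each gave 4 genes down in the stage interaction, and DESeq2 gave 1 gene up in sorted Foxd1 cells. Leaving out libraries, the number up ran from 0 to 1 in sorted E18.5 cells, from 1 to 2 in the stage interaction (down 2 to 4), from 1 to 4 in whole Foxd1 kidneys and from 1 to 2 in sorted Foxd1 cells, and the number down from 0 to 1 in the lineage interaction.

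No reversed value was called, and the main estimates of these results lay between -0.09 and 0.11. The developmental change of *Cited1* was 0.0728 by the exact test, 0.131 by DESeq2, 0.131 with RLE size factors, 0.0157 with no filter and 0.0727 with the 6 ENLWT libraries alone. The driver difference of *Sall1* was 0.0108 by DESeq2, 0.0108 with RLE and 0.04003 with no filter, and the lineage difference of *Meox1* was -0.0497 with library size only. With libraries left out, ranges that crossed 0 were -0.18 to 0.0331 (*Pgf*, whole Six2 T1), -0.10 to 0.18 (*Sall1*) and -0.0805 to 0.21 (*Pgf*) with T3, -0.0143 to 0.19 (*Osr1*) and -0.0947 to 0.0698 (*Crym*) between alleles, -0.00099 to 0.25 (*Meox1*, E14.5), -0.0814 to 0.17 (*Cited1*, development), -0.0376 to 0.16 (*Sall1*, sorted Foxd1), -0.18 to 0.14 (*Sall1*, driver) and -0.25 to 0.31 (*Meox1*, lineage).

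Replicate numbers do not pair libraries (correlation of deviations -0.0791 to 0.139 over 19 pairs). With a replicate block the numbers of the 7 genes called were as in the report, *Cited1* in whole Six2-ENLT1 kidneys was at -1.57 and *Meox1* in the lineage interaction at -0.0229.

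Over all genes, dropping the fold threshold raised the calls to 3393 (T1), 4189 (T3), 2884 (E14.5), 4603 (E18.5), 6732 (whole Foxd1) and 1363 (sorted Foxd1). The driver interaction had 2001 calls, 3084 by DESeq2 and 3713 with no filter, and T3 against T1 had 1 call, 221 by the exact test, 71 by DESeq2, 300 with no filter and 14 with both genotypes alone. With library size only, the split of calls up and down moved from 995 and 1064 to 1268 and 882 in the stage interaction and from 1226 and 1135 to 935 and 1555 in the lineage interaction. With no filter it was 878 and 1477 in the stage interaction. Groups of 2 to 4 libraries, and 15 to 48 counts for *Pgf* and *Meox1* in sorted Foxd1 cells, limit what could be detected.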
